A study of Homo sapiens with 117 samples.

Results

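CTCF binding was compared between untreated DIvA cells expressing IDH1 R132H and untreated DIvA cells expressing IDH1 WT, from lists of ChIP-seq peaks. The lists were chosen by their sample labels, no TET1 construct and no 4-hydroxytamoxifen (−DSB), and they are 7 of the 24 peak lists of a series of 117 samples. They comprise replicates 1 to 4 of IDH1 R132H and replicates 2 to 4 of IDH1 WT, and the list of IDH1 WT replicate 1 was not analysed here. DIvA cells are a U2OS osteosarcoma derivative carrying the AsiSI endonuclease fused to an estrogen receptor domain, so both groups hold this enzyme, which stays out of the nucleus until 4-OHT is added. The IDH1 forms were introduced by lentiviral infection and not by editing of the endogenous gene, and nothing in the sources says whether a line is a single clone. The 8 lists of the same cells given 300 nM 4-OHT for 4 h (+DSB, 4 of each genotype) served for a side-by-side comparison, since they share no sample with the −DSB lists.

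CTCF is a zinc finger protein that binds a long DNA motif, blocks enhancers and stops cohesin as it extrudes chromatin loops. Binding at part of its sites is lost when cytosines in the motif are methylated, and imprinted genes and the inactive X chromosome are classic examples. IDH1 R132H converts α-ketoglutarate to D-2-hydroxyglutarate, an inhibitor of TET dioxygenases, which oxidise 5-methylcytosine, so the comparison bears on whether CTCF occupancy differs with the mutant enzyme before any break is made. Occupancy in the files is the peak fold, (reads at the summit + 1) over (background + 1), as written by the authors' peak caller.

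The names written inside the lists contradict the labels. All 3 lists labelled IDH1 WT −DSB carry run names of R132H cells, and all 4 lists labelled IDH1 R132H −DSB carry run names of WT cells, whereas label and run name match in all 8 lists with 4-OHT. Groups below follow the labels. Under the run names every difference has the opposite sign, so that "higher in R132H by label" reads "higher in WT by run name". The lists labelled WT rested on an estimated 22.7 to 35.1 M reads with a shortest peak, a measure of fragment length, of 124 to 128 bp, and those labelled R132H on 44.3 to 63.2 M reads with a shortest peak of 144 to 150 bp. Neither range overlapped, so depth, fragment length and genotype cannot be told apart in these lists. With 4-OHT it was the lists labelled R132H that had fewer reads (23.7 to 34.6 M, against 70.9 to 85.5 M) and shorter fragments (121 to 127 bp, against 143 to 191 bp). Summit reads of replicates 3 and 4 differed by no more than counting noise within each genotype, and each pair was averaged, which leaves 3 R132H and 2 WT samples. The sources speak of biological replicates of this ChIP-seq without saying which lists they are, so the p-values cover only the spread between these samples.

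Of the 20000 strongest peaks, between 81.4% and 86.6% per list had a CTCF motif within 50 bp of the summit. The motif threshold was set so that 1% of control windows pass, a share fixed in advance and not measured. By this motif, most of the strongest peaks were CTCF sites. The motif was learned from sites strong in every +DSB list and is 19 bases long. The motif matches below show the sites on which the results turn, and were read from GRCh38. Capitals mark the 12-base core and the base after it, in which a CpG can occur at core positions 2 and 12, counted from the first capital. The first group holds 5 of the 7 motif-bearing sites among the 10 largest rises by label, and RASAL1 and JUP, which were added after their values were seen because they lie in promoters rich in CpG.

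PLEKHH3, chr17:42674049-42674067 (+): ctgCCTCTAGGGGGCTcct

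LAPTM4A, chr2:20135797-20135815 (+): gttCCAGCAGGGGGCAgct

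KSR1, chr17:27381179-27381197 (−): ccgCCACCAGGGGGCGagg

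NPEPL1, chr20:58692712-58692730 (−): gggGCGCGAGGGGGCGccg

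LTBP4, chr19:40602275-40602293 (−): ccgCCCCCAGGGGGCGccc

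RASAL1, chr12:113135846-113135864 (−): gtgCCGGTAGAGGGCGcgc

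JUP, chr17:41786451-41786469 (−): ccgGCGGCAGGGGGCGcgc

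The second group holds sites that were lower by label, and the last of them is the repeat shared by a tandem array on the X chromosome.

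RAB20, chr13:110456054-110456072 (+): ctgCCACGAGATGGCActc

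IGF2, chr11:2156629-2156647 (−): cgaCCAGCAGATGGCAtca

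Array between PLS3 and AGTR2, chrX:115853192-115853210 (−): gttCCTCTTGATGGCAgta

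CTCF occupancy differed between the genotypes at a large part of the sites, in both directions. Summits of the 20000 strongest peaks of each list were joined to 25253 sites, of which 23677 had a value in all 7 lists and were tested. By label, 5048 sites were higher in R132H (21.3% of those tested) and 4865 were lower (20.5%), at an adjusted p under 0.05 by limma with Benjamini-Hochberg adjustment, so 41.9% were called. Under the run names, 5048 sites were lower in R132H and 4865 were higher. Of the tested sites, 18860 were among the strongest peaks of lists of both labels, 2281 of WT lists alone and 2536 of R132H lists alone, and the last 2 sets favour a difference by the way they were chosen. With sites chosen from the lists with 4-OHT instead, 5012 were called higher and 4770 lower. The median size of a difference was 0.27 on the log2 scale, beside a median standard error of 0.14. A change of at least 1 on the log2 scale was called upward at 1105 sites (4.67%) and downward at 672 sites (2.84%).

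The list labelled WT replicate 2, the shallowest, weighs on these counts. Without it 3259 sites were called higher and 1437 lower, 19.7% of those tested, with the remaining pair of WT lists as a single sample that is assumed to vary like the others.

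Cut at the 20000 strongest peaks of each list, the same contrast appears as sites inside or outside this rank. This is not presence or absence of a peak, since 23677 of the 25253 sites had a value in all 7 lists. All 7 lists shared 15393 sites. A further 986 sites were among the strongest peaks of every list labelled R132H and of no list labelled WT, and 681 were among those of every list labelled WT and of no list labelled R132H. The former lay at promoters, within 1 kb of a protein-coding start, in 11.3% of cases and the latter in 2.79%, and the chromosome X share was 0.406% and 14.4%. In the 15393 shared sites these shares were 8.26% and 1.24%. Between lists of the same label, 91.4% to 94.9% of the 20000 strongest peaks overlapped, and between lists of different labels 82.4% to 89.5%.

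The largest rises by label were sites with a weak peak in the WT lists and a strong peak in the R132H lists. These rises, and the largest falls below, were taken from called sites without overlap between the labels. Their separation thus follows from the choice. PLEKHH3, which encodes a pleckstrin homology domain protein, has an intronic site 2923 bp from its start. Its fold was 3.42, 4.90 and 4.64 in WT replicates 2, 3 and 4 and 38.2, 27.0, 25.7 and 24.7 in R132H replicates 1 to 4. The normalized difference was 2.68 ± 0.25 (SE, log2; 3 R132H and 2 WT samples), a 6.40-fold ratio with an adjusted p of 6.9e-08 by limma. The site outside KSR1, a scaffold protein of the Ras-MAP kinase pathway, gave 5.38, 6.41 and 5.80 in the WT lists and 41.2, 36.4, 35.7 and 34.2 in the R132H lists. Its difference was 2.55 ± 0.19 (adjusted p 5.2e-09, limma), although the nearest start is 75274 bp away.

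The intronic NPEPL1 site, 3580 bp from the start of this aminopeptidase gene, holds 31 CpG within 100 bp of the summit and a CpG at both core positions. Its fold was 4.40, 8.30 and 6.19 in the WT lists and 42.1, 29.8, 31.3 and 35.1 in the R132H lists. The difference was 2.47 ± 0.20 (adjusted p 1.1e-08, limma). LTBP4, whose product binds latent TGF-β in the extracellular matrix, had an intronic site with a fold of 5.38, 7.92 and 4.25 in the WT lists and 39.8, 32.0, 27.4 and 32.1 in the R132H lists.

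The other 6 of the 10 largest rises lay near LAPTM4A, KCNJ18, TAX1BP1, POMT2, SPTB and ZBTB16, a zinc finger transcription factor gene, and their differences ran from 2.35 to 2.72. Of the 10 sites, 7 had a motif match. Under the run names, these sites were lower in R132H.

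Several promoters followed the same pattern. RASAL1 encodes a GTPase-activating protein for Ras, and its site lies 388 bp from the start with 18 CpG within 100 bp of the summit. The fold was 8.32, 7.17 and 8.895 in the WT lists and 48.5, 38.9, 39.5 and 41.1 in the R132H lists. JUP encodes plakoglobin, a protein of desmosomes and adherens junctions, and its site lies 469 bp from the start with 28 CpG. There the fold was 5.87, 9.43 and 9.28 in the WT lists and 45.8, 33.7, 38.0 and 39.3 in the R132H lists, a difference of 2.32 ± 0.17 (adjusted p 5.1e-09, limma). Promoter sites of C14orf39, ZNF490, TMEM200B, SEMA4G, RAB32, GRIFIN, SRXN1 (sulfiredoxin) and NMUR1 (a neuromedin U receptor) followed, with differences from 1.47 to 2.27. These promoters are the 10 largest among motif-bearing promoter sites, a choice made after the values were seen.

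**Figure D1:**
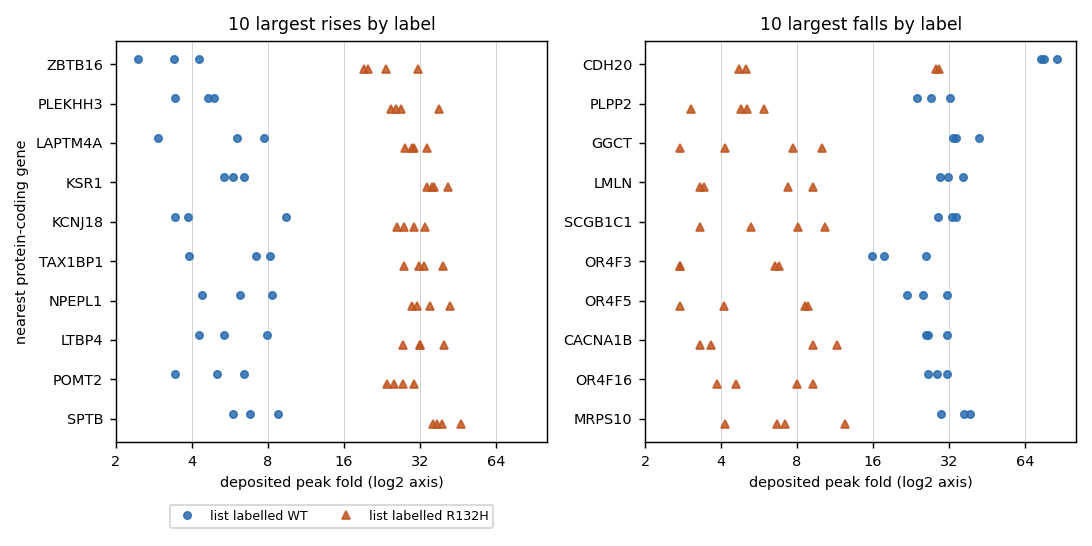
Deposited peak fold (log2 axis) in each of the 7 lists at the 10 sites with the largest rise and the 10 with the largest fall by label, named by the nearest protein-coding gene. Each point is 1 list, labelled WT (circles) or R132H (triangles). The sites were chosen among called sites whose values do not overlap between the labels, so the separation follows from the choice.

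The largest falls by label were of another kind. None of the 10 had a motif match, and 7 of them lay within 1 Mb of a chromosome end, where 1.89% of all tested sites lay. The site nearest to LMLN, 254251 bp away near the end of chromosome 3, had a fold of 36.2, 31.7 and 29.4 in the WT lists and 3.43, 3.31, 7.37 and 9.22 in the R132H lists. Its difference was −2.87 ± 0.37 (adjusted p 4.8e-06, limma). The sites nearest to the olfactory receptor genes OR4F3, OR4F5 and OR4F16 fell by 2.63, 2.62 and 2.53. Such subtelomeric sequences exist in near-identical copies, so reads cannot be assigned to one copy with certainty. At the site nearest to CDH20 the WT lists gave 85.6, 76.2 and 74.3, R132H replicates 1 and 2 gave 5.04 and 4.69, and replicates 3 and 4 lay between, at 28.3 and 29.2. The remaining falls were near CDH20, PLPP2, GGCT, SCGB1C1, CACNA1B and MRPS10, from −2.90 to −2.51.

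Falls at sites with a motif were smaller. A site in an intron of a gene on chromosome 13, nearest to the start of RAB20, a small GTPase gene 105687 bp away, gave 18.1, 20.0 and 15.5 in the WT lists and 3.66, 3.59, 5.31 and 5.06 in the R132H lists. The difference was −2.32 ± 0.46 (adjusted p 0.00051, limma), the largest fall with a motif outside chromosome 8. Of the 1105 sites called higher by at least 1, 73.2% had a motif. Of the 672 called lower by at least 1, the share was 36.2%, beside 82.1% of all sites tested.

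The X chromosome was lower in the lists labelled R132H. Of its 598 tested sites, 265 were called lower (44.3%) and 33 higher (5.52%), and the median difference was −0.41, beside −0.04 over all sites. Chromosome X held 2.24% to 2.61% of the 20000 strongest peaks in the lists labelled WT and 1.32% to 1.63% in those labelled R132H, without overlap. With the 50000 strongest peaks the order was the reverse, 2.03% to 2.30% and 2.48% to 2.77%, again without overlap. With median scaling only, 170 sites were called lower and 65 higher at a median of −0.22, beside −0.12 over all sites. Without WT replicate 2, which leaves a single WT sample, the median of the 598 sites was −0.44, beside −0.05 over all sites. Centring each site on the median of its 10 Mb window removes differences shared by a segment. The median of 0.01 was then largely set by construction, so this setting cannot test a fall shared by the chromosome. Within windows, 96 sites were called higher and 67 lower. Under the run names, X-linked sites were higher in R132H.

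A run of 15 sites on the X chromosome was lower throughout. They lie between the start sites of PLS3 and AGTR2, from 115844276 to 115886042, at a median spacing of 2984 bp, and all 15 carry the identical motif match printed above. The interval is that of DXZ4, a macrosatellite known to bind CTCF on the inactive X chromosome. The median fold over the 15 sites was 41.1, 33.6 and 32.9 in WT replicates 2 to 4 and 15.3, 9.38, 15.3 and 15.5 in R132H replicates 1 to 4. At each of the 15 sites the lists of the genotypes did not overlap, as at 49.7% of all sites tested, and all 15 were called lower by label, with differences from −1.81 to −1.32. All 15 had entered the tested set through WT lists alone, so a fall was favoured by that choice. With sites chosen from the lists with 4-OHT, which take no part in the comparison, 15 sites in the same interval were called lower at a median of −1.63. Copies of the repeat share their sequence, and the 15 sites are therefore not independent. The rest of the chromosome had a median difference of −0.40, with 250 of 583 sites called lower.

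**Figure D2:**
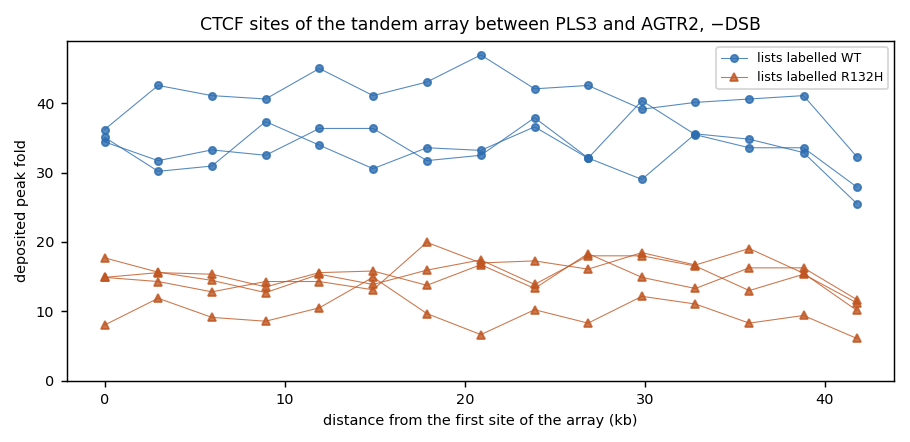
Deposited peak fold at the 15 CTCF sites of the X-linked tandem array against the distance from its first site in kb, 1 line per list. The lists labelled WT lie above those labelled R132H at every site, and 1 of the R132H lists, replicate 2, has the lowest median, 9.38.

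Sites rich in GC and CpG were more often higher in R132H by label. Among sites with 15 or more CpG within 100 bp of the summit, 34.9% were called higher and 7.64% lower. Among sites with 0 to 2 CpG these shares were 19.1% and 21.5%. By GC content, 38.4% of sites at 70% and over were called higher and 6.70% lower, whereas under 40% GC the shares were 12.2% and 31.8%. Without WT replicate 2, which leaves a single WT sample, the calls at the low end were fewer and more often higher than lower. The median differences there kept their sign. Under 40% GC the median was −0.15, in place of −0.19, and with 0 to 2 CpG it was −0.06 in both settings.

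This pattern varied with the strength of the site and with the scaling. With sites ranked by mean fold in 4 classes, in the weakest class 52.2% of those with 15 or more CpG were called higher, and in the strongest class 21.4%. The median difference of sites with 15 or more CpG was 0.10 after quantile normalization and −0.03 with median scaling only, where the median over all sites was −0.12. After a correction for GC content in each list it was −0.02, and 424 of 2447 such sites were called higher and 322 lower, in place of 854 and 187. The highest number of summit reads in each of the 7 lists equalled 2 times the shortest peak to within 1 read, so the strongest sites lie near a ceiling, and its part in these shares was not tested. Without WT replicate 2, 507 sites with 15 or more CpG were called higher and 112 lower. Under the run names, CpG-rich sites were more often lower in R132H.

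CpG within the motif went with small differences. Motif sites with a CpG at both core positions had a median difference of 0.05 (n = 1036), those with the CpG at core position 2 alone −0.01 (n = 790), those with it at core position 12 alone −0.04 (n = 5120) and those with neither −0.03 (n = 12490). Per sample, the median of sites with a CpG at core position 2 minus that of motif sites without it was 0.23, 0.30 and 0.30 in the WT lists and 0.38, 0.33, 0.38 and 0.40 in the R132H lists. Every R132H list was above every WT list, and the genotypes differed by 0.10 (p = 0.2, two-sided exact permutation test, the smallest p that 3 against 2 samples allow). With median scaling only, this difference was −0.04. For core position 12 the difference was 0.03 (exact permutation p = 0.4). Within 60 to 70% GC, 33.0% of sites with a CpG at both positions were called higher and 37.4% of those with neither.

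Promoters and exons were also more often higher by label. Promoter sites were called higher in 31.5% and lower in 9.26% of 1826 cases, and distal sites in 20.5% and 21.5%. The median of promoter sites minus that of distal sites was 0.05, 0.17 and 0.19 in the WT lists and 0.36, 0.25, 0.28 and 0.31 in the R132H lists. These values did not overlap, and the difference of 0.19 had an exact permutation p of 0.2, the smallest possible. Sites in exons were called higher in 37.9% of 1669 cases and sites outside protein-coding genes in 16.5% of 13306. After the correction for GC content the median difference was −0.02 at promoters and 0.10 in exons. Without WT replicate 2, 321 promoter sites were called higher and 96 lower, in place of 576 and 169, and 389 exon sites were called higher and 48 lower, in place of 632 and 145.

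**Figure D3:**
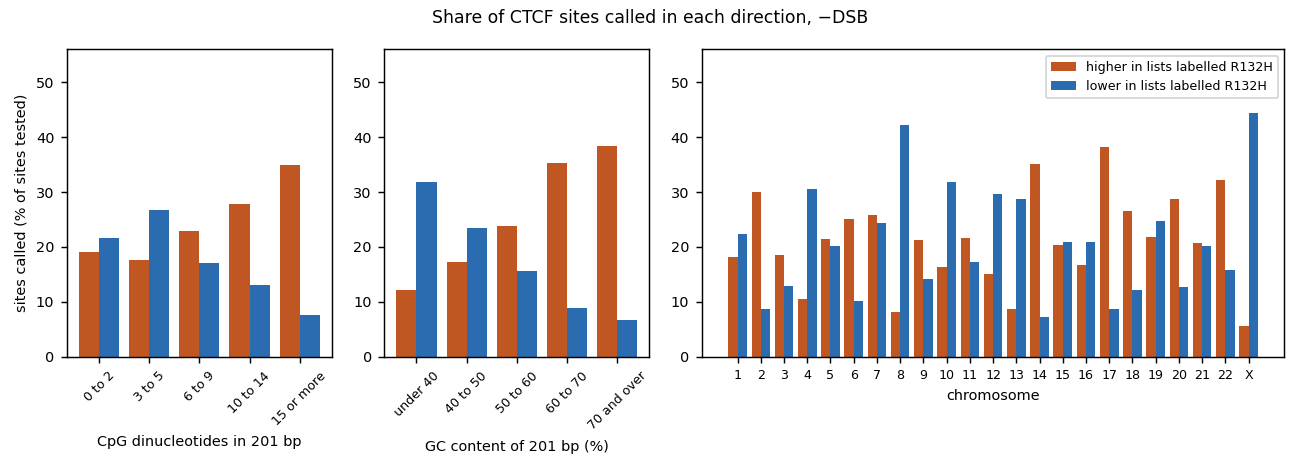
Percent of tested −DSB sites called higher (orange) or lower (blue) in the lists labelled R132H, by number of CpG and by GC content within 100 bp of the summit, and by chromosome. Bars rise from 12.2% to 38.4% for higher calls from the lowest to the highest GC class, and chromosome X has the highest share of lower calls, 44.3%.

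Chromosomes and segments differed in the direction of their calls. The fold holds no local correction by input, and copy number was not tested. Chromosomes 17 and 14 had the highest shares of higher calls (38.2% and 35.0%, with 8.72% and 7.22% lower), and after chromosome X the highest shares of lower calls were on chromosomes 8 (42.2%, with 8.12% higher), 10, 4, 12 and 13. Of 299 windows of 10 Mb with at least 20 sites, 44 had a median difference of −0.3 or less and 8 one of 0.3 or more. The highest medians were 0.42 at 90 to 100 Mb of chromosome 2 (51 sites called higher, 4 lower) and 0.40 at 60 to 70 Mb of chromosome 14 (74 higher, 1 lower). With each site centred on the median of its window, 4183 sites were still called higher and 2935 lower, and the 15 sites of the X-linked array had a median of −0.64 with 12 called.

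Pericentromeric repeats were lower in the lists labelled R132H. In 16 windows of 1 Mb with at least 20 sites and a motif in fewer than 20% of them, on chromosomes 1, 4, 5, 10, 12 and 19, 836 of 1051 sites were called lower and 2 higher, with a median of −0.83. Of the 1051 sites, 797 had entered through WT lists alone and 1 through R132H lists alone. Among the 225 that were strong in at least 4 of the 7 lists, 92 were called lower at a median of −0.47. With sites chosen from the lists with 4-OHT, 668 of 847 were called lower, and with median scaling only 262 of the 1051. These windows hold 5.14% motif sites and account for 241 of the 429 sites without a motif that were lower by at least 1. Copies of a repeat can share their sequence, so reads may be misplaced and the 1051 sites may not be independent. Without WT replicate 2, 54 of the 1051 sites were called lower, at a median of −0.56, and without R132H replicate 1 the number was 447.

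Genes of DNA repair, chromatin looping and DNA methylation were examined at the nearest tested site within 5 kb of the start. Of 18 homologous recombination genes, 5 had such a site, of which 2 were called lower by label and 0 higher, beside 20.5% and 21.3% of all sites tested. With so few sites, none of the gene lists that follow is set apart from these shares. The intronic BRCA2 site, 4785 bp from the start of this tumour suppressor gene, had a fold of 33.8, 36.2 and 36.7 in the WT lists and 25.6, 20.1, 29.5 and 30.9 in the R132H lists. Its difference was −0.42 ± 0.16 (adjusted p 0.034, limma), small beside those above. RBBP8, which encodes the end resection factor CtIP, differed by −0.23 ± 0.09 (adjusted p 0.0498, limma). The other 3 sites, that of the checkpoint kinase gene ATM among them, did not pass.

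Of 12 CTCF and cohesin genes, 6 had a site, with 2 called higher and 0 lower, 2 of 6 beside 41.9% called over all sites. They were the promoter of CTCF itself (6.85, 13.2 and 14.7 in the WT lists and 26.3, 14.9, 18.0 and 22.6 in the R132H lists, a difference of 0.68 ± 0.24, adjusted p 0.029 by limma) and that of NIPBL, the cohesin loader gene, with 0.52 ± 0.17. Of 12 DNA methylation and IDH genes, 4 had a site and 2 were higher, beside 21.3% of all sites. DNMT3A, a de novo DNA methyltransferase gene, had a site 15 bp from its start with 29.8, 43.4 and 42.2 in the WT lists and 49.0, 39.7, 49.2 and 44.9 in the R132H lists. Its raw folds overlap, and after normalization the difference was 0.62 ± 0.10 (adjusted p 7.8e-05, limma). The sites of CTCF, NIPBL and DNMT3A had no motif match.

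Among 10 genes of the glioma CpG island methylator phenotype, 2 had a site and both were higher by label, as were 21.3% of all sites, MAL by 0.87 ± 0.14 and TIMP3, a metalloproteinase inhibitor gene, by 0.35 ± 0.10. In the neighbourhood of PDGFRA, an oncogene whose insulation by CTCF is known to fail in IDH mutant glioma, 1 of 6 genes had a site within 5 kb. The intronic PDGFRA site had a fold of 61.6, 70.2 and 66.9 in the WT lists and 46.9, 39.7, 54.3 and 55.0 in the R132H lists, and a normalized difference of −0.05 ± 0.07 (adjusted p 0.58, limma). The folds as deposited did not overlap there, whereas the normalized values did. The sites of PDGFRA, MAL and TIMP3 had no motif match, unlike 82.1% of all sites tested. Whether the PDGFRA site belongs to that insulation was not tested.

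Of 15 imprinted genes, 13 have a protein-coding start and 4 of these had a site, with 1 called higher and 2 lower, beside 21.3% and 20.5% of all sites. The IGF2 site, 1739 bp from the start of this growth factor gene, had a fold of 27.9, 41.1 and 37.1 in the WT lists and 18.1, 11.9, 18.0 and 24.1 in the R132H lists. The groups did not overlap, and the difference was −1.07 ± 0.20 (adjusted p 0.00025, limma), a 2.09-fold ratio. CDKN1C, an imprinted cell cycle inhibitor gene, differed by −0.40 ± 0.09, and PEG10, a retrotransposon-derived gene, by 0.68 ± 0.12. With sites centred on their 10 Mb window, the CDKN1C difference was 0.08 and did not pass.

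CTCF sites near AsiSI sites, uncut here, were counted as well. Of 327 CTCF sites within 10 kb of one of the 1220 AsiSI sites, 94 were called higher and 43 lower. The share called in either direction was 41.9%, equal to that over all sites. By direction, higher calls outnumbered lower ones, whereas over all sites the shares were 21.3% higher and 20.5% lower.

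Described per list, the 20000 strongest peaks differed slightly between the labels. The share at promoters was 7.14%, 7.88% and 7.89% in the WT lists and 8.85%, 8.43%, 8.49% and 8.54% in the R132H lists, and the mean CpG number was 5.57 to 5.78 against 5.94 to 6.10. The median peak width was 861, 941 and 936 bp against 1199, 1064, 1072 and 1080 bp. None of these ranges overlapped. Each difference had an exact permutation p of 0.2 (adjusted p 0.28 over 7 values), the smallest possible, and 4 against 3 lists would allow 0.0571. The share with a motif overlapped between the groups.

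The same sites were then compared after 4-OHT, where the labels and run names match. Of the 23020 sites with a value in all 15 lists, 6486 were higher in R132H (28.2%) and 5714 lower (24.8%), 53.0% in all. Across these sites, the difference by label without 4-OHT and that with 4-OHT had a Pearson correlation of −0.90. Of 7702 sites called in both, which are 81.1% of the 9495 −DSB calls at these sites and 63.1% of the +DSB calls, 7699 had opposite directions and 3 the same. NPEPL1 differed by 2.47 without and −3.26 with 4-OHT, JUP by 2.32 and −2.68, IGF2 by −1.07 and 0.91, and LMLN by −2.87 and 2.84. All 15 sites of the X-linked array were called lower without and higher with 4-OHT. With 4-OHT, their median deposited fold was 27.6, 12.3, 25.4 and 28.5 in the WT lists. In the R132H lists it was 30.9, 31.0, 22.2 and 25.2, so these overlap and the higher calls rest on normalized values. Of the 20000 strongest +DSB peaks, 3.93% to 33.8% per WT list and 0.715% to 3.62% per R132H list exceeded 80% of the highest summit reads. Over 10 Mb windows the medians of the 2 contrasts had a correlation of −0.93. The 2 contrasts themselves differed, as an interaction of genotype and 4-OHT, at 63.7% of the sites. Sites share lists, sequence composition and depth, so these correlations are descriptions.

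**Figure D4:**
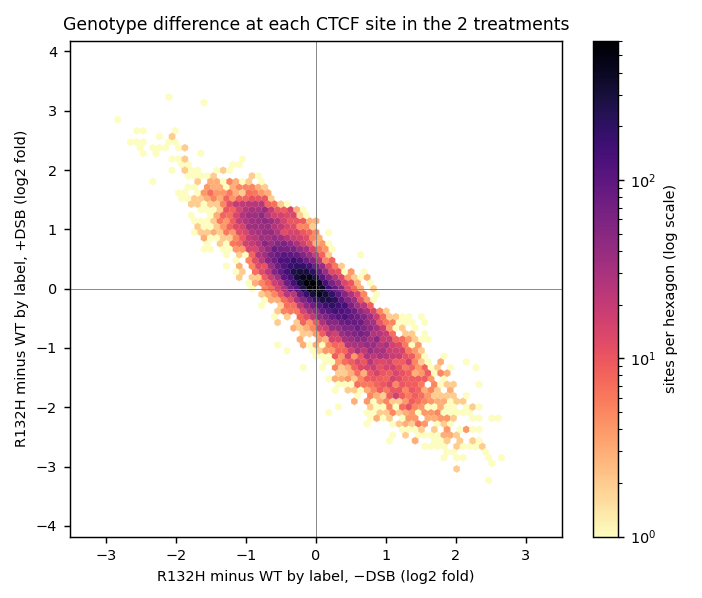
Difference in log2 fold between lists labelled R132H and WT without 4-OHT (horizontal) and with 4-OHT (vertical) at 23020 sites, with the number of sites per hexagon in colour on a log scale. The cloud runs from the upper left to the lower right, with a Pearson correlation of −0.90.

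The lists labelled WT −DSB were nearly as much like those labelled R132H +DSB as like each other. Across the 23020 sites, the Spearman correlation of the lists labelled WT −DSB was 0.94 to 0.97 with those labelled R132H +DSB, 0.95 to 0.98 among themselves, 0.72 to 0.88 with R132H −DSB and 0.62 to 0.77 with WT +DSB. Lists labelled R132H −DSB reached 0.83 to 0.96 with WT +DSB and 0.75 to 0.89 with R132H +DSB. R132H −DSB replicates 3 and 4 lay closest to the other side, at 0.83 to 0.88 with the WT −DSB lists, above 0.72 to 0.78 for replicates 1 and 2. With treatment as a term in limma and both treatments together, genotype by label gave 0 called sites (428 at an unadjusted p under 0.05) and genotype by run name 14622 (63.5%; 15406 unadjusted). The run names exchange the genotypes in 1 treatment only, so their term is by construction the interaction given above. In the term by label, opposite contrasts cancel. The 2 counts are therefore not results apart from that interaction. Depth and fragment length pair the lists in the same way, so run name, depth and fragment length cannot be told apart here.

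**Figure D5:**
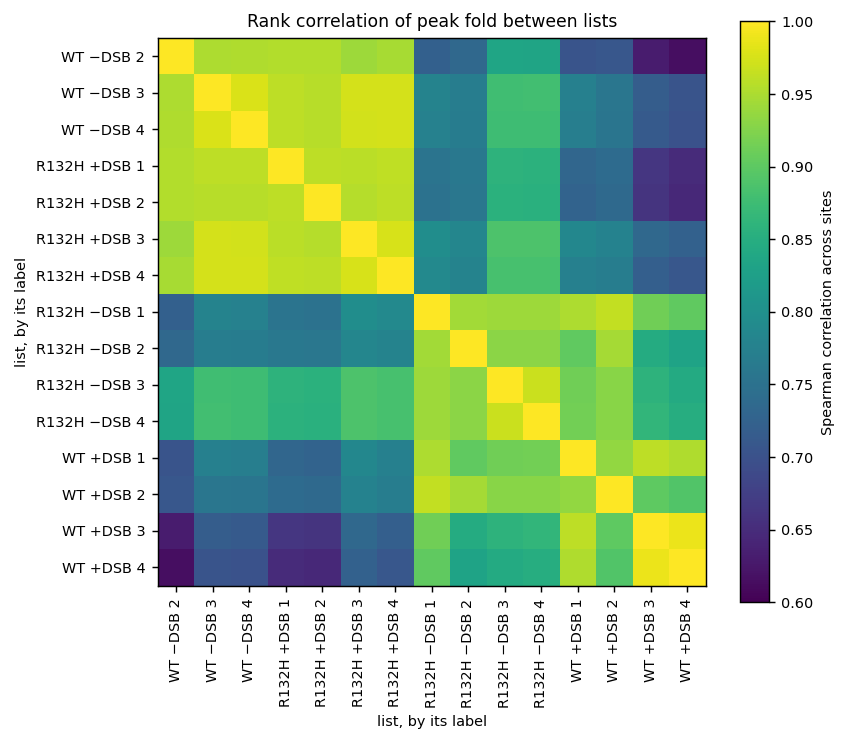
Spearman correlation of peak fold across 23020 sites between all 15 lists, ordered as WT −DSB, R132H +DSB, R132H −DSB and WT +DSB by label. The first 7 lists form a block with correlations of 0.94 to 0.98, and their correlations with the other 8 lists are 0.62 to 0.89.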

How the data were processed

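CTCF ChIP-seq peak lists were deposited per sample by the authors, who aligned reads to GRCh38 with Bowtie2 and called peaks against input with MACS2 (the sources give differing versions). The deposited fold is a ratio to background, and the deposited p and q values are on a −log10 scale. The 9 lists with TET1 constructs were not used. Reads per list were estimated from the background and the shortest peak.

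The 20000 peaks of highest fold per list were taken, and summits within 100 bp joined. Lists whose summit reads differed by no more than counting noise (p at least 0.05) were averaged. Log2 folds of sites with a value in every list were quantile normalized and tested with limma 3.58.1 in R 4.3.3, Benjamini-Hochberg adjusted at 0.05. The script was tested on simulated data. For class and list values an exact permutation test, two-sided, was used (scipy 1.17.1). Replicates 2, 3 and 4 of the genotypes deviated together by correlations of 0.148, 0.0683 and 0.0637, so the numbers do not pair the lists. The motif was learned from 14565 sites strong in every list with 4-OHT. Its threshold of 10.6 log2 odds was set so that 1% of control windows pass. Genes are from GENCODE 44.

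Named sites are the 10 largest rises and falls among called sites without overlap, outside chromosome 8, and the nearest site within 5 kb of the start of each listed gene. Some listed genes are counted but not reported here by name. Members and lists were chosen with earlier results of these data known. Alternatives comprised other list sizes, normalizations, site sets, leaving out each list and grouping by run name.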

Additional observations from a re-analysis of the deposited data

Results flagged for a closer look

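Among the 4 lists labelled R132H, replicate 1 stood apart from the other 3 in the 20000 strongest peaks, with a median GC content of 49.75% and a median peak width of 1199 bp, both the highest. These were 2 of 43 groups of values examined, and chance sets apart about 1 in 20. The other 3 lists shared the same median GC content, 49.25%, so the GC flag rests on that tie.

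The difference between the genotypes itself differed with 4-OHT at 14661 of 23020 sites (limma interaction, adjusted p under 0.05, all 15 lists normalized together), 63.7% of those tested. Among the named sites, the difference with 4-OHT minus that without was −5.521 at PLEKHH3, −4.822 at LAPTM4A, −5.508 at KSR1, −5.31 at KCNJ18, −4.763 at TAX1BP1, −5.786 at NPEPL1, −5.193 at LTBP4, −4.417 at POMT2 and −5.059 at SPTB on the log2 scale. It was 5.769 at LMLN, 5.089 at SCGB1C1, 5.064 at CACNA1B, 4.974 at OR4F16 and 5.162 at MRPS10. Among the gene lists it was 0.8849 at BRCA2, 0.3784 at RBBP8, −1.389 at NIPBL, −1.362 at DNMT3A, −1.803 at MAL, −0.8741 at TIMP3, 1.99 at IGF2, 0.7151 at CDKN1C and −1.311 at PEG10. Under the run names, which exchange the genotypes only without 4-OHT, the 2 contrasts have the same direction at these sites.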

How the results depend on the processing

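Grouping by run names turned every sign by construction: the list values became −2.475 (percent with motif), −0.1469 (CpG at core position 2), 0.5168 (core position 12), −1.086 (promoters), −1.534 (GC), −0.3343 (CpG) and −213.2 bp (width), and the class values −0.09956 (core position 2), −0.02615 (core position 12), −0.1876 (promoters) and −0.1548 (10 or more CpG). Elsewhere the sign turned for the motif share with 10000 peaks per list (−1.232), the core position 2 share at −log10 q of at least 10 (−0.557) and with 50000 peaks (−0.4169), and the core position 12 share with 10000 peaks (0.9933). With median scaling only the class values were −0.03554 (core position 2), −0.1423 (core position 12) and −0.04673 (10 or more CpG). For core position 12 the class value was −0.004428 with 50000 peaks and −0.0009073 without WT replicate 2. The cause was not tested.

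Called sites numbered 4409 (2382 higher, 2027 lower) with 10000 peaks per list, 15715 (7975 and 7740) with 50000, and 3190 (2230 and 960) for WT replicates 3 and 4 against R132H replicates 2 to 4, chosen after seeing the data. Lower calls were 3127 for sites strong in at least 4 lists, 2874 with missing values at the lowest fold and 2935 with 10 Mb centring (added later), which also turned PDGFRA (0.1732) and CDKN1C (0.07774). Sites of R132H lists alone were 3517 with 50000 peaks and 3586 at −log10 q of at least 10, and those of WT lists alone 1099 with 50000.

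Leaving out 1 list gave 4696 to 9701 calls (3259 to 4948 higher, 1437 to 4781 lower), the lowest without WT replicate 2, 1024 to 1197 and 709 to 922 sites of one label alone, and 12150 to 13059 calls after 4-OHT. The list values ranged from 0.42 to 3.008 (motif), 0.06198 to 0.2218 and −0.5418 to −0.4068 (core positions 2 and 12), 0.7108 to 1.171 (promoters), 0.9121 to 1.658 (GC), 0.2378 to 0.3663 (CpG) and 170.2 to 237.8 bp. The class values ranged from 0.06036 to 0.1201, −0.0009073 to 0.03865, 0.1117 to 0.221 and 0.09515 to 0.1786. With the replicate number as a block over replicates 2 to 4, 5055 sites were higher and 5423 lower, and the list values were 1.688, 0.06753, −0.4053, 0.8483, 1.161, 0.2609 and 159.3 bp (p = 0.25 each, exact permutation, the smallest that 3 pairs allow).

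Over the named sites, 1144 of 1197 values kept direction and side of the threshold. Depth and fragment length do not overlap between the labels and limit every comparison.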
